A study of Homo sapiens with 4 samples.

Results

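The 9 S100 genes S100A4, S100A6, S100A8, S100A9, S100A10, S100A11, S100A12, S100A13 and S100P were taken by symbol from the 58037 genes of an RNA-Seq count table, and all 9 had counts. The table was made from OCI-AML3, a human acute myeloid leukemia (AML) cell line that carries heterozygous mutations in NPM1 and DNMT3A and a homozygous NRAS mutation in both conditions. Cells were transfected with sgRNA Ctrl, labelled sgNeg (2 libraries), or with sgNPM1A, a guide RNA that targets the mutant allele of NPM1 (mtNPM1; 2 libraries), and were harvested at day 3 (72 hours). The comparison asks what CRISPR knockout (KO) of mtNPM1 does to mRNA levels. Each library is a bulk of transfected cells of 1 cell line. The study describes no sorting or cloning of these cells, and the share of edited cells is not given. Any unedited cells are read together with edited ones.

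S100 proteins are small EF-hand proteins, mostly dimers, and most of them bind calcium and then bind other proteins. S100A8 and S100A9 pair to form calprotectin, an abundant cytosolic protein of neutrophils and monocytes, and together with S100A12 they are released as alarmins that signal through receptors such as TLR4 and RAGE. Other family members act mainly inside the cell, where they bind annexins, cytoskeletal proteins and other partners, and are made in many tissues. Most of the family lies in 1 cluster on chromosome 1.

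Of the members, 8 lie on chromosome 1 and S100P lies on chromosome 4. S100A9 (chr1:153357854-153361023), S100A12 (chr1:153373711-153375621) and S100A8 (chr1:153390032-153422583, a span that includes an upstream start) are neighbours, with 12687 bases between S100A9 and S100A12 and 14410 between S100A12 and S100A8. These positions are those of RefSeq on GRCh38.p14. The 250 bases before the transcription start are printed for these 3 neighbours, whose mRNAs rose, and for S100A6, the next member along the chromosome, whose change did not pass the test. They run 5′ to 3′ on the gene's own strand, and capitals mark matches on either strand to TTNNGNAA, a C/EBP-type motif, and to TATAAA, the box that TBP binds. The windows are chr1:153357604-153357853 for S100A9 (plus strand) and, on the minus strand, chr1:153375622-153375871 for S100A12, chr1:153391074-153391323 for S100A8 and chr1:153535992-153536241 for S100A6.
S100A9: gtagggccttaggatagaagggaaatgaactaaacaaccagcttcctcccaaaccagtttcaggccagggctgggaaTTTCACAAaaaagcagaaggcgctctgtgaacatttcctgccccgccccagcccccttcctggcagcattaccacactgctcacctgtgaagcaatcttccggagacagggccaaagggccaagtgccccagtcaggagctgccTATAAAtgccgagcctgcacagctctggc
S100A12: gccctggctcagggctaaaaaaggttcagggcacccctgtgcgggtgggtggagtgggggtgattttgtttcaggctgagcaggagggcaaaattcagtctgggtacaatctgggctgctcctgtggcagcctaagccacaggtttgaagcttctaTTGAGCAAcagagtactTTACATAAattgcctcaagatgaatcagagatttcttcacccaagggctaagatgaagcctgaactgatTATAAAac
S100A8: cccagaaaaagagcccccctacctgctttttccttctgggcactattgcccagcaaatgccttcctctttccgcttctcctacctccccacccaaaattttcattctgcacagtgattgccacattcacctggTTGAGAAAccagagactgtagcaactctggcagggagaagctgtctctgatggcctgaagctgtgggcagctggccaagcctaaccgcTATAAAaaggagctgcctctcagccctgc
S100A6: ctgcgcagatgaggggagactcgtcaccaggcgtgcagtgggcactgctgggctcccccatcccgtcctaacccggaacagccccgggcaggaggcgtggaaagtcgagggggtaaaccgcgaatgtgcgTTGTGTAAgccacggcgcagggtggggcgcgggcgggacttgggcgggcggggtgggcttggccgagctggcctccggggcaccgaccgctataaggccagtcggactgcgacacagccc

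In the windows of S100A8 and S100A9, TATAAA began 29 bases before the start in both, and TTNNGNAA began at 117 and 173 bases, respectively. S100A12 held TTNNGNAA at 94 and 77 bases and TATAAA at 8 bases before its start. The windows of S100A8 and S100A9 also held GAGGAA, a PU.1-type motif, at 189 and 208 bases. That of S100A12 held TGANTCA, a loose form of the AP-1 site with any middle base, at 57 bases, where it read TGAATCA. No match of 1 motif overlapped a match of another. Over all 9 members, 6 windows held TTNNGNAA and 6 held TATAAA, while 2 held GAGGAA and 1 held TGANTCA. Among 35116 windows of the same length in the whole RefSeq table, the shares with a match were 33.2% for TTNNGNAA, 10.7% for TATAAA, 23.6% for GAGGAA and 6.57% for TGANTCA. S100A6 and S100A11, whose mRNAs were not called as changed, held TTNNGNAA as well. The motifs were chosen after the expression values had been seen, and a match is a description of letters and not a binding site.

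Total counts ranged from 25069484 to 28276391 per library, so 3 counts, taken as the floor, were from 0.108 to 0.118 CPM (counts scaled to a common library size by TMM). Calls needed an adjusted p (Benjamini-Hochberg over 15718 tested genes, edgeR's quasi-likelihood test) under 0.05 and a log2 fold change of at least 0.32 in size, the fold threshold of the study. NPM1, the targeted gene, had 33522 and 35881 counts with sgRNA Ctrl and 33154 and 31428 counts with sgNPM1A, summed over the mutant and normal alleles (log2 fold change -0.22, SE 0.07, edgeR adjusted p = 0.0360), which is under the fold threshold. The p threshold was missed as well without sgRNA Ctrl 2 (edgeR adjusted p = 0.0746), without sgNPM1A 1 (0.203), without sgNPM1A 2 (0.430) and with the replicate block (0.156). The counts do not separate the alleles, so the mRNA level of the mutant allele alone was not measured. For protein, the study reports a marked decline of mutant and total NPM1 by immunoblot in this cell line at the same harvest time.

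mtNPM1 KO raised the mRNAs of S100A8, S100A9 and S100A12 by between 4.77-fold and 6.58-fold, while none of the other members was called as changed. Of the 9 members 8 were tested, of which 3 were called higher, 0 lower and 5 not called, against backgrounds of 10.5% of all tested genes called higher and 10.3% called lower. At an unadjusted p under 0.05 edgeR also found 0 members lower, and DESeq2 and limma each called 0 lower. The median log2 fold change of the 8 tested members was 0.26, against 0.000183 for all tested genes. This median depended on single libraries and was 0.13 without sgRNA Ctrl 1 and 0.40 without sgRNA Ctrl 2. In 4 members both sgNPM1A libraries lay above both sgRNA Ctrl libraries and in 1 both lay below, and such a separation was found for 63.1% of all tested genes. The p-values measure only the spread between these libraries, which the study calls biological replicates.

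**Figure D1:**
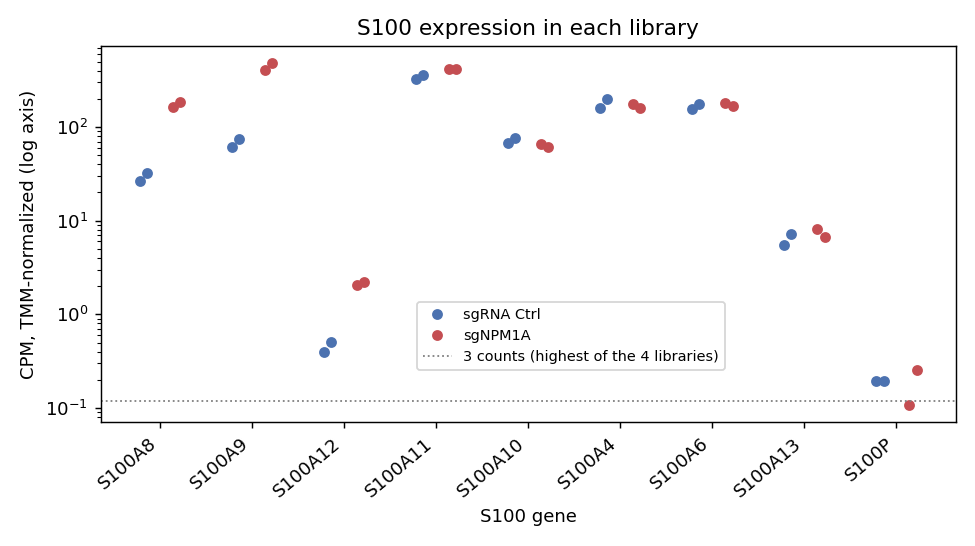
Level of each S100 gene in each library, in TMM-normalized CPM on a log axis, with blue points for sgRNA Ctrl, red points for sgNPM1A and a dotted line at the CPM of 3 counts in the shallowest library. The red points of S100A8, S100A9 and S100A12 sit well above the blue points, with 164.0 and 183.5 CPM against 26.3 and 32.3 CPM for S100A8, while those of S100A4, S100A6, S100A13 and S100P overlap the blue points.

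**Figure D2:**
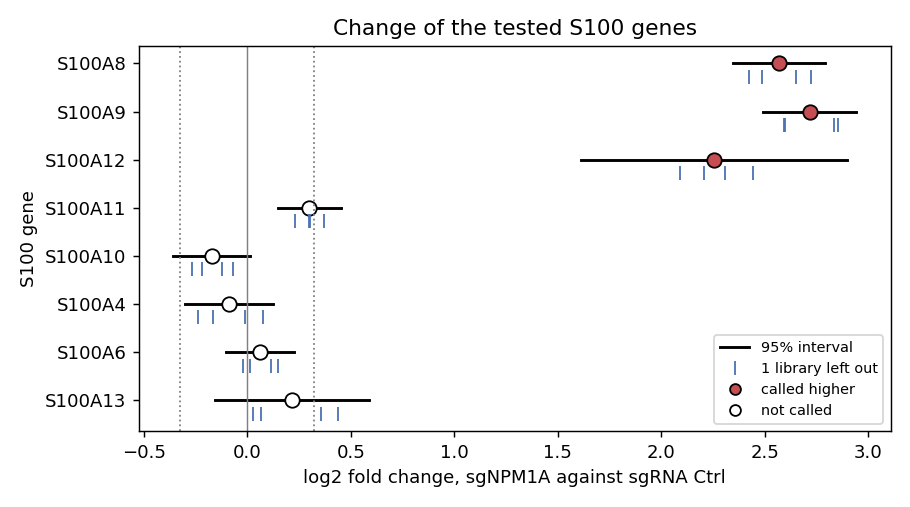
Log2 fold change of the 8 tested S100 genes (points, filled red where called higher) with 95% intervals (black lines), the values with 1 library left out (blue ticks), and dotted lines at the fold threshold (0.32) in either direction. S100A8 (2.57), S100A9 (2.72) and S100A12 (2.26) lie far to the right of the other 5, which lie between -0.17 and 0.30.

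S100A9, the calprotectin subunit with the longer C-terminal tail, had 1569 and 1911 counts in the sgRNA Ctrl libraries and 11420 and 13375 counts in the sgNPM1A libraries. Both sgNPM1A libraries were far above both controls, and the groups did not overlap. Its level was 67.8 ± 8.53 CPM in sgRNA Ctrl cells and 445.7 ± 50.9 CPM in sgNPM1A cells (SD, n = 2 each), a rise of 6.58-fold (95% interval 5.63 to 7.69, log2 fold change 2.72, SE 0.10, edgeR adjusted p = 3.94e-08). In bulk RNA, more cells of a type and more RNA per cell cannot be told apart. S100A8, its partner subunit, had 668 and 837 counts with sgRNA Ctrl and 4572 and 5094 counts with sgNPM1A. The groups were again fully separate. Its level went from 29.3 ± 4.27 to 173.7 ± 13.7 CPM (SD, n = 2 each), a rise of 5.93-fold (95% interval 5.08 to 6.92, log2 fold change 2.57, SE 0.10, edgeR adjusted p = 4.80e-08).

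The balance of the subunits was also read within each library. The ratio of S100A8 to S100A9 CPM, not divided by transcript length, was 0.426 and 0.438 in the sgRNA Ctrl libraries and 0.400 and 0.381 in the sgNPM1A libraries. The sgNPM1A values were lower in both libraries, which gives an exact permutation p of 0.333 (two-sided, the smallest possible with 2 against 2 libraries).

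S100A12, an alarmin of granulocytes and monocytes that binds RAGE, was far less abundant. It had 10 and 13 counts with sgRNA Ctrl and 58 and 62 counts with sgNPM1A, and the groups did not overlap. Its level rose from 0.448 ± 0.0768 to 2.16 ± 0.108 CPM (SD, n = 2 each), which is 4.77-fold (95% interval 3.06 to 7.45, log2 fold change 2.26, SE 0.29, edgeR adjusted p = 0.000189). Its lowest library, at 0.393 CPM, was close to the filter on low counts, which lay at 0.372 CPM. The summed counts were 23 (exact Poisson 95% interval 14.6 to 34.5) and 120 (99.5 to 143.5), intervals that cover counting error only. Leaving out any 1 library gave log2 fold changes from 2.43 to 2.73 for S100A8, from 2.59 to 2.85 for S100A9 and from 2.09 to 2.44 for S100A12, and all 3 were called each time.

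Beside the rise of S100A8, S100A9 and S100A12, 5 of 7 myeloid markers were called higher and their summed level went from between 1067 and 1080 CPM to between 3728 and 4453 CPM. Most of the rise in this sum lay in LYZ, lysozyme, which was singled out after its values were seen. LYZ had 270.6 and 215.1 CPM with sgRNA Ctrl and 2643 and 3367 CPM with sgNPM1A. The other 6 summed to 809.5 and 852.2 CPM with sgRNA Ctrl and to 1085 and 1086 CPM with sgNPM1A, 4 of them called higher and 2, CD33 and PTPRC, not called. For none of 5 lists of markers of other cells did both sgNPM1A sums lie above both sgRNA Ctrl sums. Erythroid markers stayed at or under 0.193 CPM in sum with 2 of 5 at 0 throughout, 3 of 4 T cell markers were at 0 throughout, B cell markers summed to from 1.51 to 2.20 against from 1.36 to 1.69 CPM, megakaryocyte and platelet markers to from 2.24 to 2.74 against from 2.38 to 2.44 CPM with 1 of 4 called higher, and fibroblast and epithelial markers, 3 of 6 at 0 throughout, to from 28.1 to 29.4 against from 9.62 to 13.3 CPM with 2 called lower. The platelet gene called higher, PPBP, had 2 and 2 against 11 and 16 counts and passed the low-count filter only through sgNPM1A. DCN, among the fibroblast markers called lower, had 13 and 15 against 5 and 6 counts and passed it only through sgRNA Ctrl. The part of the markers in the S100 values was not tested.

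S100A11, which binds annexin A1 and takes part in membrane repair and growth control, had 8237 and 9212 counts with sgRNA Ctrl and 11642 and 11631 counts with sgNPM1A. Both sgNPM1A libraries lay above both controls. The level was 339.9 ± 22.4 CPM with sgRNA Ctrl and 418.3 ± 0.862 CPM with sgNPM1A (SD, n = 2 each), with a log2 fold change of 0.30 (SE 0.07, fold 1.23, 95% interval 1.11 to 1.37, edgeR adjusted p = 0.00843), so it passed the p threshold and missed the fold threshold. Without sgRNA Ctrl 2 it passed both (log2 fold change 0.37, edgeR adjusted p = 0.00385), and without sgNPM1A 1 or sgNPM1A 2 it missed the p threshold (edgeR adjusted p = 0.0765 and 0.0883). A pseudogene shares 2.33% of the 50-base words of its transcript.

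S100A10, the p11 subunit that joins annexin A2 at the plasma membrane and binds plasminogen activator, had 1710 and 1997 counts with sgRNA Ctrl and 1847 and 1719 counts with sgNPM1A. After normalization these were 67.3 and 77.1 CPM against 66.3 and 61.9 CPM, so both sgNPM1A libraries lay below both controls by a small margin. The log2 fold change was -0.17 (SE 0.08, edgeR adjusted p = 0.164), and the 95% interval of the log2 fold change ran from -0.36 to 0.01. It came to -0.27 without sgRNA Ctrl 1 (edgeR adjusted p = 0.0334, still under the fold threshold) and to -0.069 without sgRNA Ctrl 2 (edgeR adjusted p = 0.550).

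S100A4, a binder of non-muscle myosin linked to cell motility, had 4042 and 5108 counts with sgRNA Ctrl and 4919 and 4403 counts with sgNPM1A. In CPM these were 159.0 and 197.2 against 176.5 and 158.6, and the groups overlapped. The log2 fold change was -0.09 (SE 0.10, edgeR adjusted p = 0.553), with a 95% interval of the fold from 0.812 to 1.09, and its sign turned without sgRNA Ctrl 2 (0.076). S100A6, calcyclin, had 3961 and 4523 counts with sgRNA Ctrl and 4982 and 4620 counts with sgNPM1A, which also overlapped in CPM. Its log2 fold change was 0.06 (SE 0.08, edgeR adjusted p = 0.591), with a 95% interval of the fold from 0.931 to 1.17, and its sign turned without sgRNA Ctrl 1 (-0.018). With all 4 libraries both intervals lay inside the fold threshold, for S100A4 by a small margin, and S100A4 came to -0.24 without sgRNA Ctrl 1 (SE 0.08).

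S100A13, which takes part in the release of FGF1, had 139 and 188 counts with sgRNA Ctrl and 227 and 185 counts with sgNPM1A. The groups overlapped in CPM, and the log2 fold change of 0.22 (SE 0.17, edgeR adjusted p = 0.386, 95% interval -0.15 to 0.59) did not pass. It came to 0.028 without sgRNA Ctrl 1 and to 0.44 without sgRNA Ctrl 2, and neither value passed the test. Its value is uncertain, since 41.1% of the 50-base words of its transcript also occur in a lncRNA listed at 0 counts in every library. The RefSeq span of S100A13 also overlaps those of S100A1 and CHTOP, and the part of shared reads was not tested. S100P, an S100 protein best known from placenta and carcinomas, had 5 and 5 counts with sgRNA Ctrl and 3 and 7 counts with sgNPM1A. It did not pass the filter on low counts and was not tested. Its summed counts were 10 in either condition (exact Poisson 95% interval 4.80 to 18.4), with a ratio of 0.922 after normalization (exact 95% interval 0.345 to 2.47).

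All 8 tested members were higher in sgRNA Ctrl 2 than in sgRNA Ctrl 1, by between 1.10 and 1.33 times in CPM, and 4 of 8 were higher in sgNPM1A 2 than in sgNPM1A 1. This spread between the control libraries was at least as large as the change in S100A4, S100A6, S100A10 and S100A13.

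Dividing by transcript length left the order of the mean levels unchanged in sgNPM1A cells. In sgRNA Ctrl cells it swapped S100A4 with S100A6 and S100A9 with S100A10. In sgRNA Ctrl cells S100A11 was highest at 603.7 ± 39.7 CPM per kb, followed by S100A6 at 380.7 ± 30.7, S100A4 at 347.2 ± 52.7, S100A9 at 118.2 ± 14.9, S100A10 at 107.6 ± 10.4 and S100A8 at 71.8 ± 10.5 CPM per kb (SD, n = 2 each). In this order the libraries of S100A6 and S100A4 overlapped, as did those of S100A9 and S100A10. In sgNPM1A cells S100A9 stood first at 777.8 ± 88.8 CPM per kb, beside S100A11 at 743.0 ± 1.53, and S100A8 at 425.8 ± 33.7 stood beside S100A6 at 397.6 ± 20.1, the libraries of each pair overlapping. S100A4 followed at 326.6 ± 24.7 and S100A10 at 95.5 ± 4.59 CPM per kb. S100A13 (13.3 ± 2.65 and 15.5 ± 2.20 CPM per kb), S100A12 (0.923 ± 0.158 and 4.45 ± 0.222) and S100P (means of 0.414 and 0.382) were the 3 lowest in both conditions.

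Summed over the 9 genes, S100 transcripts came to 800.2 and 918.7 CPM with sgRNA Ctrl and to 1423 and 1480 CPM with sgNPM1A. Both sgNPM1A libraries were higher, with a ratio of the means of 1.69 (exact permutation p = 0.333, two-sided, the smallest that 2 against 2 libraries can give). These were from 0.0811% to 0.0930% of all counts with sgRNA Ctrl and from 0.140% to 0.146% with sgNPM1A. The rise lay mostly in the 3 genes called higher, whose sum went from 97.5 ± 12.9 to 621.6 ± 64.8 CPM, while the other 6 together went from 762.0 ± 70.9 to 830.0 ± 24.6 CPM (SD, n = 2 each). The split follows the calls and is a description.

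**Figure D3:**
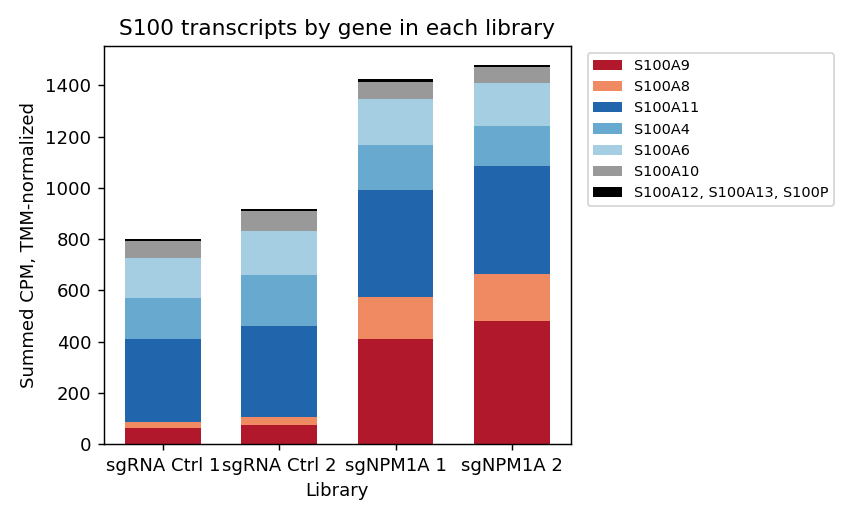
Summed TMM-normalized CPM of the 9 S100 genes in each library, stacked by gene and not divided by transcript length. The bars rise from 800.2 and 918.7 CPM to 1423 and 1480 CPM, and the red and orange segments of S100A9 and S100A8 grow most between sgRNA Ctrl and sgNPM1A.

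The higher calls were neighbours within the chromosome 1 cluster. From S100A10 to S100A13 RefSeq lists 64 protein-coding genes, 62 of which were in the table. Of those, 40 had 0 counts in every library, 12 were tested, and 4 were called, namely S100A9, S100A12 and S100A8 higher and TCHH lower. Over all tested genes, 10.5% were called higher and 10.3% lower. Without the S100 genes, 2 genes of the interval were tested, with 0 higher and 1 lower. TCHH, trichohyalin of hair follicles, fell from 1.72 to 0.539 CPM (log2 fold change -1.66, edgeR adjusted p = 0.00240). S100A11, the nearest tested gene of the family on the other side, lies 1320849 bases from S100A9. The interval was chosen after the values had been seen.

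**Figure D4:**
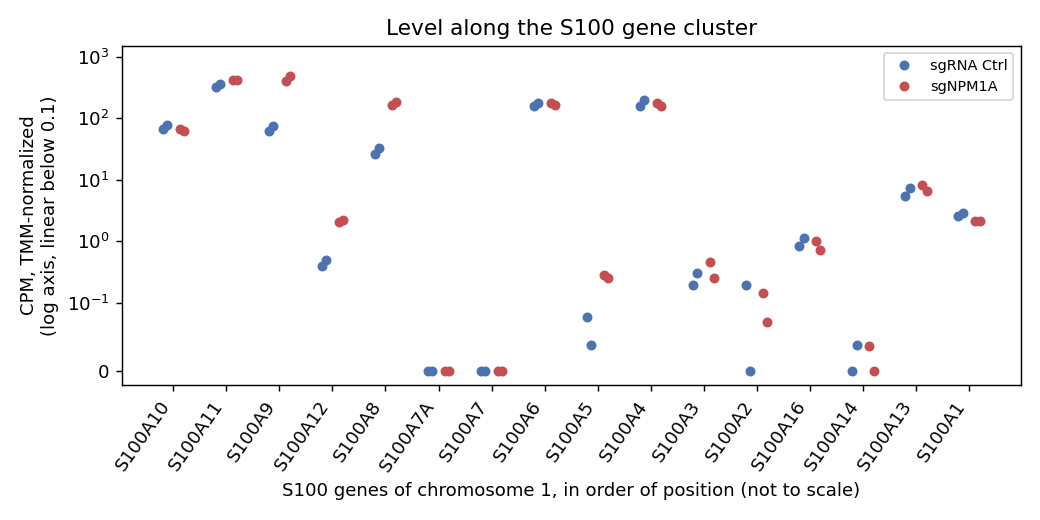
Level of the S100 genes of chromosome 1 in each library, in order of position and not to scale, in TMM-normalized CPM on an axis that is logarithmic above 0.1 and linear below. S100A9, S100A12 and S100A8 stand side by side with sgNPM1A points (red) far above sgRNA Ctrl points (blue), and S100A7A and S100A7 next to them are at 0 in every library.

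Of the 11 other S100 genes on the list, 8 had any count, 6 had more than 3 counts in a library, and 2 were tested. S100A1, a calcium sensor of muscle, had 66 and 74 counts with sgRNA Ctrl and 60 and 60 counts with sgNPM1A (log2 fold change -0.34, SE 0.20, edgeR adjusted p = 0.241). The RefSeq span of S100A1 lies within that of S100A13. S100A16 had 21 and 29 counts against 28 and 20 counts (log2 fold change -0.17, SE 0.33, edgeR adjusted p = 0.740). None was called by edgeR, DESeq2 or limma, and 0 had an unadjusted p under 0.05 in any of these tools. S100A3 (5 and 8 against 13 and 7 counts) lay above the floor in every library but did not pass the filter on low counts. S100A2 (5 and 0 against 4 and 2) and S100B (2 and 0 against 5 and 2) were near the floor. S100A7, S100A7A and S100Z, of which S100A7 is the psoriasin of skin, were at 0 throughout.

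S100 proteins act through receptors and partners, and 25 of the 29 such genes listed were tested. Of these, 4 were called higher, 2 lower and 19 not called, with a median log2 fold change of 0.06, beside the 10.5% and 10.3% of all tested genes called higher and lower. Among receptors and surface binding proteins, 2 of the 8 tested were higher and 0 lower. CD36, a scavenger receptor that binds the S100A8 and S100A9 complex with arachidonic acid, rose from 98.9 ± 5.19 to 174.5 ± 17.8 CPM (SD, n = 2 each, log2 fold change 0.82, SE 0.08, edgeR adjusted p = 2.74e-05). ALCAM, a cell adhesion molecule, rose from 9.44 ± 1.45 to 20.6 ± 2.88 CPM (log2 fold change 1.13, SE 0.14, edgeR adjusted p = 0.000124). TLR4 went from 29.7 to 31.0 CPM (log2 fold change 0.06, edgeR adjusted p = 0.689), AGER, which encodes RAGE, from 35.6 to 38.5 CPM (0.11, adjusted p = 0.515), and BSG, the CD147 receptor of S100A9, from 772.8 to 853.9 CPM (0.14, adjusted p = 0.139), and none of the 3 was called. CD14, the co-receptor of TLR4, had 561 and 722 counts with sgRNA Ctrl and 820 and 935 counts with sgNPM1A (log2 fold change 0.34, edgeR adjusted p = 0.0557) and was not called, although 5 of 13 alternative fits called it higher. LY96, on the same receptor list, had 1 and 1 counts with sgRNA Ctrl and 3 and 3 counts with sgNPM1A. This gene did not pass the filter on low counts and was not tested. Both CD14 and LY96 were singled out after their values were seen.

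All 7 annexins of the list were tested, with 2 higher and 1 lower. ANXA1, the partner of S100A11, rose from 51.4 to 70.9 CPM (log2 fold change 0.46, edgeR adjusted p = 0.00119), and ANXA5 rose from 47.5 to 75.3 CPM (0.67, adjusted p = 0.000115). ANXA2, the partner of S100A10, fell from 611.3 ± 45.7 to 401.7 ± 4.60 CPM (SD, n = 2 each, log2 fold change -0.61, SE 0.07, edgeR adjusted p = 0.000101). The ratio of S100A10 to ANXA2 CPM was thus 0.116 and 0.120 with sgRNA Ctrl and 0.164 and 0.155 with sgNPM1A. Of 5 scaffold and cytoskeletal partners, 1 was called. IQGAP1, a scaffold of actin signalling, was lower at 135.2 ± 10.7 against 169.5 ± 23.2 CPM (log2 fold change -0.33, edgeR adjusted p = 0.0246), just past the fold threshold, and this call was lost without sgRNA Ctrl 1 (-0.18, adjusted p = 0.135), without sgNPM1A 1 (-0.24, adjusted p = 0.195) and with the replicate block (-0.32, adjusted p = 0.0144), where it lay just under the fold threshold. Of the 5 other partners tested, 0 were called by edgeR.

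**Figure D5:**
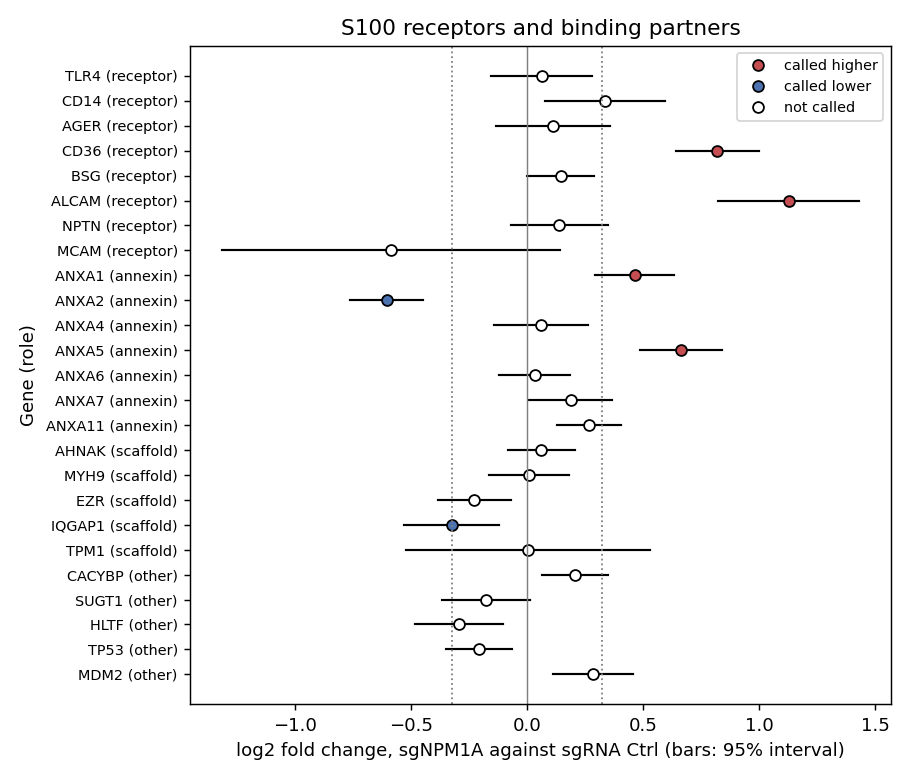
Log2 fold change with 95% interval of the 25 tested receptors and binding partners of S100 proteins, grouped by role, with dotted lines at the fold threshold (0.32) in either direction, red for called higher, blue for called lower and white for not called. ALCAM (1.13) and CD36 (0.82) lie farthest to the right and ANXA2 (-0.61) is the lowest called gene.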

How the data were processed

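RNA of OCI-AML3 cells was sequenced, and the authors deposited raw counts for each Ensembl gene in all 4 libraries, with reads aligned to hg38 with STAR. The counting program and annotation release are not given in the sources used here. The labels name alpha-MEM and the methods of the study RPMI as medium. Groups are those of the labels. The S100 genes, the other lists, and the rule to name every S100 gene, every called partner and preset receptors were chosen with earlier results of these data known.

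Counts were tested with edgeR 4.0.16 in R 4.3.3 (filterByExpr with a minimum count of 10, TMM, robust quasi-likelihood fit, two-sided), tested on simulated data beforehand. Adjustment ran over all genes tested, and CPM are TMM-normalized. DESeq2 1.42.0, limma 3.58.1 (limma-trend after quantile normalization), other scalings, filters and fold thresholds, a replicate block and leaving out each library were the alternatives. Transcript lengths and shared 50-base words came from 1 GENCODE transcript per gene, and promoters and positions from RefSeq on GRCh38.p14. S100A8 and S100A13 have 3 promoter windows each, and the one at the start of that transcript was used. Libraries of a condition differed by more than sampling noise (chi-square per degree of freedom of 8.99 and 4.16). Intervals on counts cover counting error only.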

Additional observations from a re-analysis of the deposited data

How the results depend on the processing

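S100A8, S100A9 and S100A12 were called higher, and no member lower, in every alternative run. With limma-trend NPM1 came to -0.42 (log2, adjusted p = 0.00108) and passed both thresholds. No fold threshold gave 7 partners higher and 5 lower of 25, beside 2030 genes higher and 2057 lower of 15718, and a fold change of at least 2 gave 1 and 0, beside 498 and 502 genes. The summed S100 level had a ratio of 1.99 without S100A11. With 1 library left out, the log2 fold change ranged from -0.24 to 0.076 for S100A4 (0.076 without sgRNA Ctrl 2), from -0.018 to 0.15 for S100A6 (-0.018 without sgRNA Ctrl 1), from 0.23 to 0.37 for S100A11, from -0.27 to -0.069 for S100A10 and from 0.028 to 0.44 for S100A13, the members' median from 0.13 to 0.40, and the partners called lower from 1 to 2. The ranges of AGER (from -0.054 without sgRNA Ctrl 1 to 0.30 without sgRNA Ctrl 2) and TLR4 (from -0.044 without sgRNA Ctrl 2 to 0.18 without sgRNA Ctrl 1) also held both signs. The cause was not tested.

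The labels number the libraries 1 and 2 without saying that a number is shared, and the deviations of same-numbered libraries correlated at -0.130 (-0.523 in 8856 genes averaging over 10 CPM), so the numbers were not taken as pairs. The replicate block left 1 partner called lower and 5 called higher (CD14 added), called 1637 genes higher and 1604 lower, and changed no call of an S100 member. The crossed block paired each sgRNA Ctrl library with the sgNPM1A library of the other number and was chosen after seeing the data. It called 1955 genes higher and 1918 lower, with 3 S100 members higher and 0 lower. With 2 libraries a condition, small differences, and genes near 3 counts such as S100P, were not resolved.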

Other observations

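S100A5, a member of the family best known from brain and olfactory tissue, had 2 and 1 counts with sgRNA Ctrl and 8 and 7 counts with sgNPM1A. It did not pass the filter on low counts and was not tested. The summed counts of 3 and 15 gave a ratio of 4.61 after normalization, with an exact 95% interval for counting error only of 1.30 to 24.9. The RefSeq span of S100A5 overlaps that of S100A4 by 65 bases, and S100A4 had from 4042 to 5108 counts in each library. The part of shared reads in these few counts was not tested.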
